A study of Mus musculus with 3 samples.

Results

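The genes described here are 39 members of the cell's antioxidant and glutathione systems, all of which were found on the array among 20825 named genes, and all 39 were well above background on all 3 arrays. They were chosen by name, with earlier results of these data known, and each gene was read from its brightest probe. The study profiled fibroblasts grown from mouse tail tips on day 8 of reprogramming, after Oct4, Sox2, Klf4 and c-Myc had been introduced, on 1-colour Agilent arrays. The donors were wild-type (WT) mice at 2 months of age (young WT), WT mice at 22 months (old WT), and 22-month-old mice without the cyclin-dependent kinase inhibitor p16 (old p16-/-). All 3 groups received the same factors, and the culture medium of the fibroblasts contained β-mercaptoethanol, itself a reducing thiol. Each group is a single array here, although the design text speaks of 2 experiments on separate donors; the strain, the sex and the number of donors behind an array, and how the factors were delivered, are not given in the sources used here.

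Antioxidant defence works in layers. Superoxide dismutases turn superoxide into hydrogen peroxide, which catalase, the glutathione peroxidases and the peroxiredoxins remove. The peroxidases draw their electrons from glutathione or thioredoxin, which are kept reduced by glutathione reductase and thioredoxin reductase at the cost of NADPH. Glutathione transferases join glutathione to reactive molecules. Many of these genes are induced by the transcription factor Nfe2l2 (also called NRF2), which Keap1 holds down by sending the protein for degradation, so that its activity is set largely after translation. In fibroblasts, oxidative stress is a known trigger of senescence, in which p16 takes part.

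Levels are processed signals, the background-subtracted brightness of a probe's spots. Ratios are log2 differences after each array was scaled to its 75th percentile, which lay at 2138 (young WT), 2051 (old WT) and 2058 (old p16-/-), and the scaling adds 0.06 to each ratio of old WT over young WT relative to the raw signals. The ratio of old WT to young WT is called the age ratio, as a name only, and that of old p16-/- to old WT the knockout ratio; both contain the old WT array. A log2 ratio of 1 is 2-fold and one of 0.58 is 1.5-fold. A single array per group allows neither a replicate check nor a test, so every statement below describes these 3 arrays and no difference is shown to exceed the spread between donors. The only error that can be measured is that between repeated spots of an array, which gives a ratio a typical SD of 0.08.

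Cdkn2a, the gene of p16, gave 62705, 65464 and 28065 in the order young WT, old WT, old p16-/-, all above background. It also encodes Arf, and the labels do not say whether its probe lies in the deleted part, so the knockout label could not be checked by it.

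Most members differed little between the arrays, and a few differed several-fold. The range from the lowest to the highest of the 3 arrays was under 1.5-fold for 28 of 39 members (71.8%), against 74.8% of the 12887 genes above background on all arrays. Of those genes with a signal of at least 1000 on at least 1 array, 80.3% had such a range. The range was at least 2-fold for 8 members (20.5%): the cystine importer Slc7a11, the secreted glutathione peroxidase Gpx3, the extracellular superoxide dismutase Sod3, and 5 genes of the glutathione transferase group, Mgst1, Mgst2, Gsta2, Gstm2 and Gsto1. The share was 12% of all genes above background on all arrays, and 9.04% of those with a signal of at least 1000 on at least 1 array. Of the 8 members, only Mgst1 and Gstm2 have further probes, and each of the others rests on 1 probe with 1 spot per array. None of the 6 peroxiredoxins or 3 thioredoxin genes reached 2-fold, with ranges of up to 0.42 and 0.31 on the log2 scale.

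**Figure D1:**
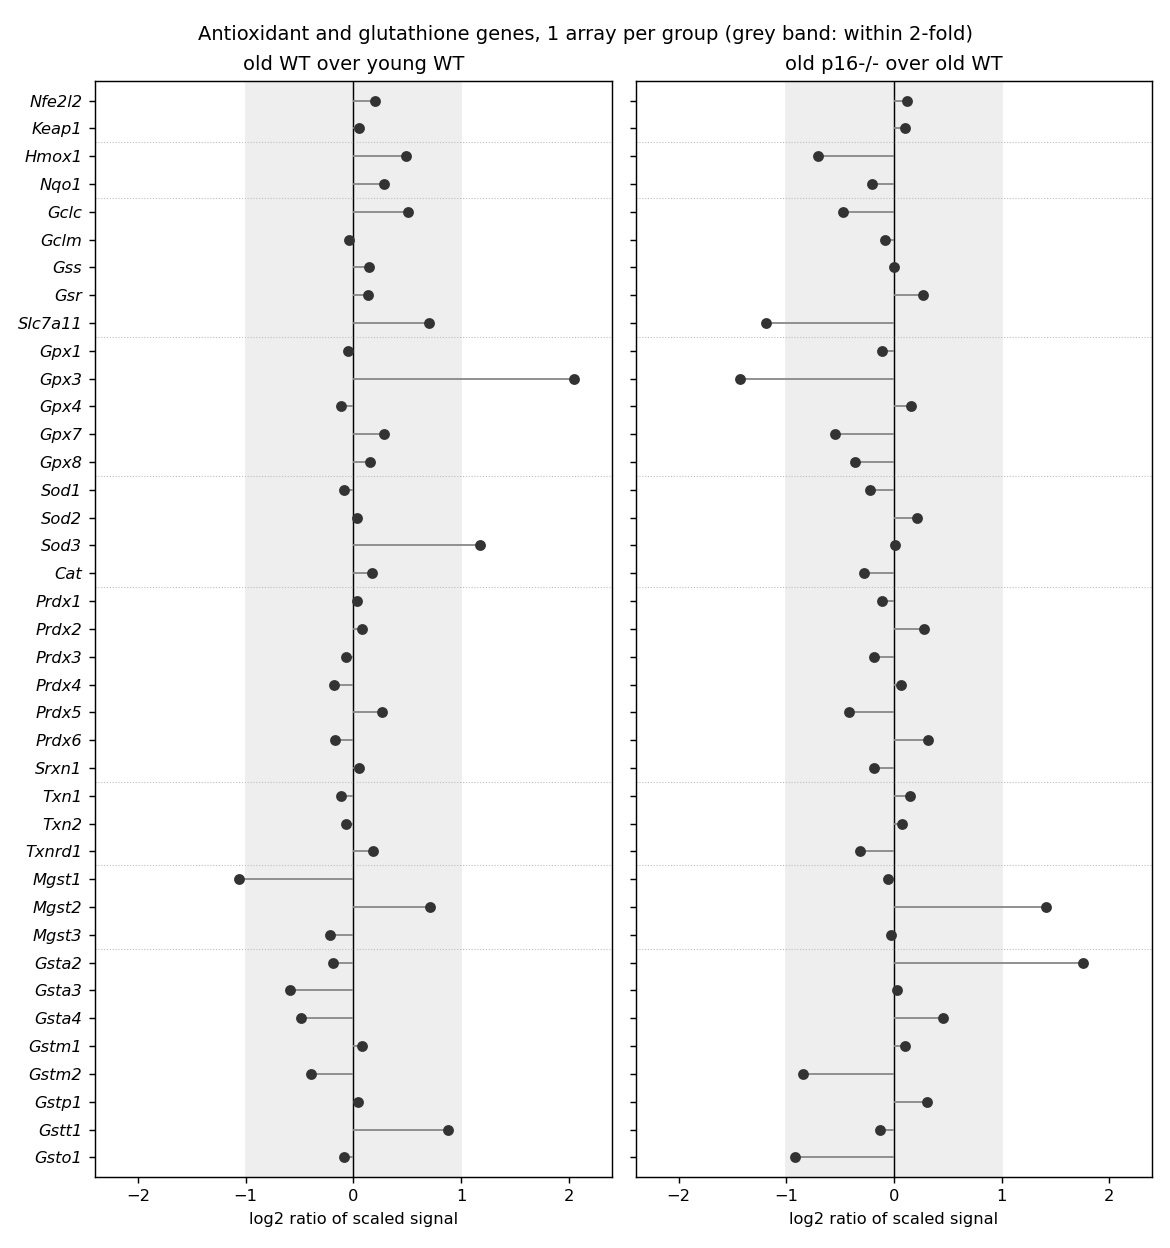
The log2 ratio of scaled signal (x axis) of each of the 39 members (rows, separated by role) for old WT over young WT (left) and old p16-/- over old WT (right), with 1 array per group and the range within 2-fold in grey. Gpx3 lies farthest out on the left, at 2.05, and Gsta2 on the right, at 1.75, while most points lie near 0; the old WT array enters both panels.

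**Figure D2:**
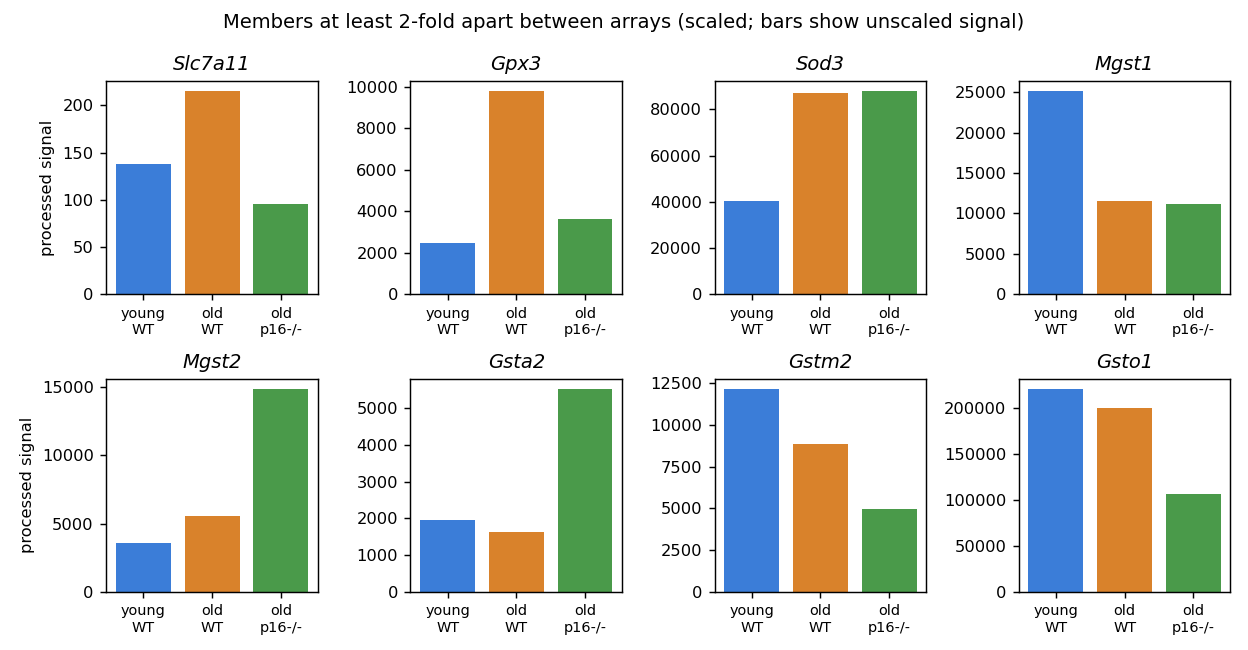
Processed signal before scaling (y axis, linear from 0, own scale in each panel) on the 3 arrays for the 8 members at least 2-fold apart between arrays, 1 bar per array and no error bar. Gpx3 and Slc7a11 stand highest on old WT, Mgst2 and Gsta2 on old p16-/-, and Mgst1 on young WT.

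Between old WT and young WT, 2 of 39 members (5.13%) were at least 2-fold higher on old WT, Gpx3 and Sod3, where 2.92% of 14550 counted genes were that much higher. One, Mgst1, was at least 2-fold lower (2.56% of members, against 3.17% of genes). Nearly all members are bright, and 38 reached a signal of 1000 on 1 of these arrays; of them 2 were at least 2-fold higher (5.26%, against 1.17% of genes as bright) and 1 lower (2.63%, against 0.562%). At 1.5-fold, 5 members were higher (12.8%, against 6.67% of genes), with the transferases Gstt1 and Mgst2 and the importer Slc7a11 added, and 2 were lower (5.13%, against 5.02%), with the transferase Gsta3 added. The median log2 ratio was 0.06 over the 39 members and -0.00 over all counted genes, and 23 members lay above 0 (59.0%, against 47.4% of genes).

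Between old p16-/- and old WT, 2 members were at least 2-fold higher on p16-/-, Mgst2 and Gsta2 (5.13%, against 5.89% of 14695 counted genes). Gpx3 and Slc7a11 were at least 2-fold lower (5.13%, against 6.61%), so the shares of members lay near those of all genes. Among brighter genes (signal of at least 1000 on 1 of the arrays compared), 2 of 37 members were that much higher (5.41%, against 2.67% of genes) and 1 lower (2.70%, against 4.21%). At 1.5-fold, 5 members were lower (12.8%, against 12.7%), with the heme oxygenase Hmox1 and the transferases Gstm2 and Gsto1 added, and no further member was higher (5.13%, against 11.5%). The median was -0.06 over the members and 0.02 over all counted genes.

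The outer arrays, old p16-/- and young WT, were compared as well, each of which also enters a comparison above. Sod3, Mgst2 and Gsta2 were at least 2-fold higher (7.69% of members, against 6.34% of 14283 counted genes) and Mgst1, Gstm2 and Gsto1 at least 2-fold lower (7.69%, against 6.96%). Among brighter genes the shares were 8.11% of 37 members each way, against 3.42% of genes higher and 4.19% lower. Gsto1 lay at the edge, 2.01-fold lower. At 1.5-fold, 5 members were higher (12.8%, against 11.3%), with Gpx3 and Gstt1 added, and no further member was lower (7.69%, against 12.2%). The median was -0.03 over the members and 0.03 over all counted genes.

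**Figure D3:**
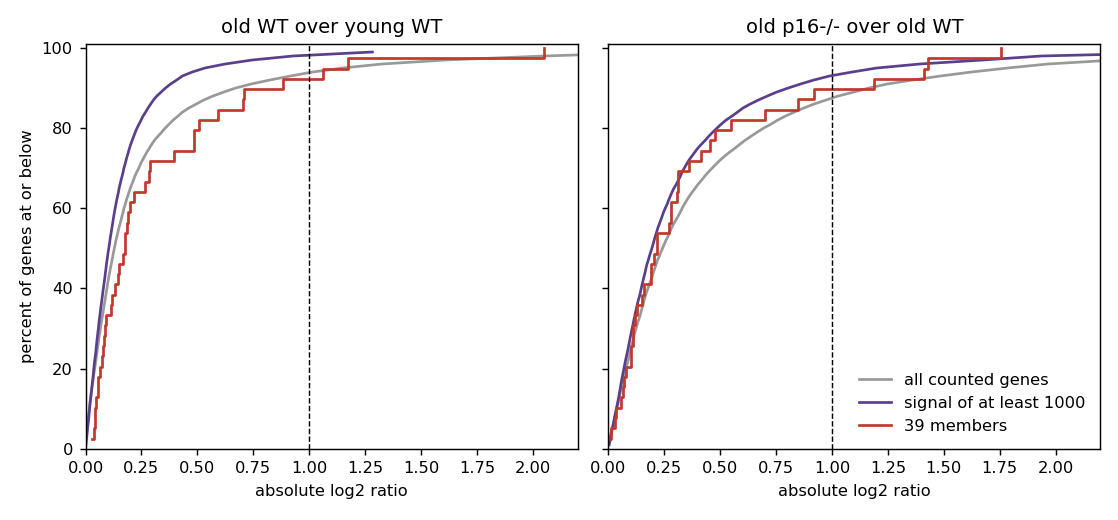
Percent of genes (y axis) whose absolute log2 ratio is at or below the value on the x axis, for the 39 members (red steps), all counted genes (grey) and bright genes, those reaching a signal of 1000 on either array (purple), for old WT over young WT (left) and old p16-/- over old WT (right); the dashed line is 2-fold. The median absolute ratio of the members was 0.18 on the left, against 0.13 for all counted genes and 0.10 for bright genes. On the right it was 0.22, against 0.24 for all counted genes and 0.19 for bright genes.

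The regulators differed little. Nfe2l2 had 25282 (young WT), 27827 (old WT) and 30311 (old p16-/-). Keap1, the adaptor that presents Nfe2l2 for degradation, had 9753, 9730 and 10489. Both had their highest level on old p16-/-, although by small amounts. Nfe2l2 had an age ratio of 0.20 and a knockout ratio of 0.12, and those of Keap1 were 0.06 and 0.10.

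Nfe2l2 binds the antioxidant response element, and its core TGACNNNGC was searched on both strands of the promoter windows that RefSeq (GRCm38.p6) gives for 33 of the 39 members, from 250 bases before to 50 after a gene's start. The other 6 members, Hmox1, Gclc, Gsr, Sod3, Gsta4 and Prdx6, had no window, and sequence outside the windows was not searched. The core was present in a window of 8 members (24.2%), against 14.0% of 27025 genes. These were Nfe2l2 itself, Gclm, Txnrd1, Prdx1, Srxn1, Mgst1, Gsta3 and Sod1; the match in Srxn1 reaches past the gene's start. Some are shown with the core in capitals, for 3 known targets, Nfe2l2 itself, and Mgst1 as the one that differed at least 2-fold between arrays. Each is written 5′ to 3′ on the gene's strand, and all but that of Nfe2l2 match on the other strand.
Nfe2l2: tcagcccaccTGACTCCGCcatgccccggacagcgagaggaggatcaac
Gclm: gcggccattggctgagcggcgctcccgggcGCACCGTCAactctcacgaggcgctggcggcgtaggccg
Txnrd1: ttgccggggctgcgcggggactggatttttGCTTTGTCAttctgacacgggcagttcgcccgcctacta
Prdx1: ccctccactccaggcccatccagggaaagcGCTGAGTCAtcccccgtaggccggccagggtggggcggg
Mgst1: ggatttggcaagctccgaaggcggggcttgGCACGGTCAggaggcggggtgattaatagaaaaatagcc

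In GRCm38.p6 these stretches are chr2:75704865-75704913 (minus strand), chr3:122245393-122245461, chr10:82859084-82859152, chr4:116685436-116685504 and chr6:138140441-138140509 (plus strand). The matches begin 240, 134, 92, 133 and 56 bases before the start in the order shown. Txnrd1 has 3 windows and Mgst1 has 2, of which 1 each holds the core. The windows of Nqo1 and Slc7a11, also known targets, do not hold it. A match is a description of the letters, and binding was not measured. The ratios of old WT over young WT of these 5 genes lay on both sides of 0, from -1.06 for Mgst1 to 0.20 for Nfe2l2.

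The 7 classical Nfe2l2 targets among the members (Hmox1, Nqo1, Gclc, Gclm, Txnrd1, Srxn1 and Slc7a11) had mostly small ratios. For old WT over young WT, 6 of 7 lay above 0 (47.4% of counted genes did), with a median of 0.29 and none 2-fold apart. Srxn1 (0.06) and Gclm (-0.04) lay within the SD of 0.08 that spots give a ratio, so their signs carry little weight. For old p16-/- over old WT, 7 of 7 lay below 0 (46.7% of counted genes did), with a median of -0.31, and Slc7a11 alone was 2-fold apart. Gclm, at -0.08, was only about that SD below 0. Both comparisons use the old WT array. In the comparison that leaves it out, old p16-/- over young WT, the median was -0.13, with 2 above 0 and 5 below.

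Hmox1, which breaks down heme, had the second largest ratio of these targets between the old arrays. Its signals were 39005 (young WT), 52405 (old WT) and 32317 (old p16-/-), highest on old WT. Old WT over young WT was at 0.49 and old p16-/- over old WT at -0.70, and another probe of the gene gave 0.52 and -0.70.

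Gclc, the catalytic subunit of glutamate-cysteine ligase, which sets the pace of glutathione synthesis, had 10085 (young WT), 13739 (old WT) and 9902 (old p16-/-). It too was highest on old WT, with nearly equal levels on the other arrays. Its age ratio was 0.51 and its knockout ratio -0.48. Its modifier subunit Gclm did not follow, with 2246, 2092 and 1985 and ratios of -0.04 and -0.08.

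Slc7a11 imports cystine, the source of cysteine for glutathione. Its signals were low, at 138 (young WT), 215 (old WT) and 95 (old p16-/-), with the highest on old WT. The age ratio was 0.70 and the knockout ratio -1.19. Repeated probes with a median signal under 300 had an SD between spots of 0.11 to 0.12, and Slc7a11 rests on 1 spot per array. With normexp background correction, which adds an offset to the signals, the second ratio was -0.79, within 2-fold.

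The remaining targets stayed within 1.5-fold. The quinone reductase Nqo1 had 6487, 7588 and 6613 on young WT, old WT and old p16-/-, with an age ratio of 0.29 and a knockout ratio of -0.20. Thioredoxin reductase Txnrd1 had 36288, 39586 and 31955, with 0.19 and -0.31. Both were highest on old WT. Sulfiredoxin Srxn1, which repairs overoxidised peroxiredoxins, had 24166, 24094 and 21200, with 0.06 and -0.19.

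**Figure D4:**
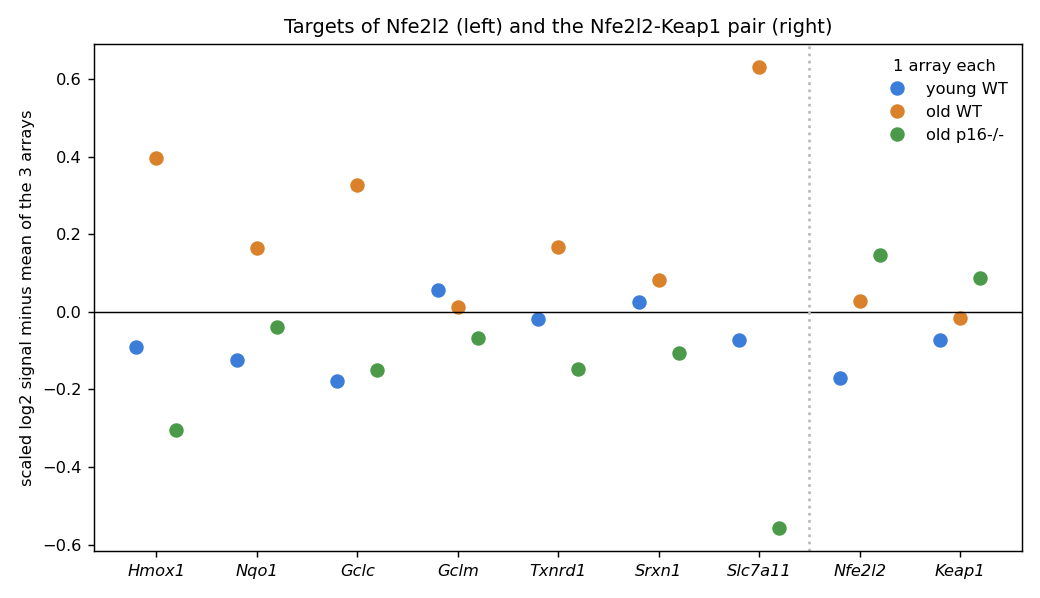
Scaled log2 signal of each array minus the mean of the 3 arrays (y axis) for the 7 classical targets and, right of the dotted line, Nfe2l2 and Keap1; each point is 1 array. The old WT point is the highest for 6 targets, all but Gclm, and the old p16-/- point is the highest for Nfe2l2 and Keap1.

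The other enzymes of glutathione synthesis and reduction were near even. Glutathione synthetase Gss had signals of 5361, 5692 and 5710 on young WT, old WT and old p16-/-, with an age ratio of 0.15 and a knockout ratio of 0.00. Glutathione reductase Gsr, which regenerates glutathione, had 16051, 16889 and 20446 and was highest on old p16-/-, with 0.13 and 0.27. A second Gsr probe gave 0.03 and 0.36.

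Among the glutathione peroxidases, Gpx3 stood alone in size. This selenium enzyme is secreted and acts outside the cell. Its signals were 2464 (young WT), 9795 (old WT) and 3646 (old p16-/-), so that old WT was high and the other arrays were low. It was 4.14-fold higher on old WT than on young WT (log2 ratio 2.05) and 2.69-fold lower on old p16-/- than on old WT (-1.43). Old p16-/- over young WT was at 0.62. The gene has 1 probe with 1 spot per array.

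The other 4 peroxidases had ranges under 1.5-fold. Gpx1, the cytosolic form, had 153720, 142822 and 132895 on young WT, old WT and old p16-/- (age ratio -0.05, knockout ratio -0.11). Gpx4, which reduces lipid hydroperoxides in membranes and guards against ferroptosis, had 49711, 43915 and 49277 (-0.12 and 0.16). Those of the endoplasmic reticulum were both lowest on old p16-/-. Gpx7 had 1697, 1984 and 1360 (0.29 and -0.55), and Gpx8 had 31989, 34095 and 26661 (0.15 and -0.36).

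Of the superoxide dismutases, the extracellular Sod3 separated the young array from both old arrays. Its signals were 40224 (young WT), 86986 (old WT) and 87882 (old p16-/-). It was 2.25-fold higher on old WT than on young WT (log2 ratio 1.17) and 2.27-fold higher on old p16-/- than on young WT (1.18). Between the old arrays it was at 0.01, and its sign there turned under 4 of 12 alternatives.

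The intracellular dismutases and catalase did not share this pattern. The cytosolic Sod1 had 154367, 138966 and 119718 on young WT, old WT and old p16-/-, lowest on old p16-/-, with an age ratio of -0.09 and a knockout ratio of -0.22. The mitochondrial Sod2 had 46616, 45878 and 53475, with 0.04 and 0.22. Catalase (Cat), the peroxisomal enzyme, had 1970, 2136 and 1766, with 0.18 and -0.28. A second probe of Cat gave 0.45 and -0.23, the widest gap in the age ratio between probes of a member that were above background on all 3 arrays.

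The comparisons with young WT carry a further difference between donors. The Y-linked genes Ddx3y and Eif2s3y had signals of 3949 and 6819 on young WT and did not rise clearly over background on the old arrays. Xist, the transcript of the inactive X, had 1548 on old WT and 1387 on old p16-/- and did not clear background on young WT. Donor age and sex-linked expression therefore cannot be told apart in the values of Sod3, Mgst1 and other genes against young WT.

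The 6 peroxiredoxins, which remove peroxides through a reactive cysteine, were near even, with age ratios between -0.18 and 0.27 and knockout ratios between -0.42 and 0.31. Prdx5, found in several compartments, had 21755 (young WT), 25094 (old WT) and 18876 (old p16-/-) and was lowest on old p16-/- (0.27 and -0.42). Prdx6, which uses glutathione in place of thioredoxin, had 87157, 74415 and 92684 and was lowest on old WT (-0.17 and 0.31). Its other 2 probes above background on all arrays gave age ratios of -0.23 and -0.18 and knockout ratios of 0.30 and 0.23.

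The typical peroxiredoxins followed no common order. The cytosolic Prdx1 had 102973, 100774 and 93507 on young WT, old WT and old p16-/- (0.03 and -0.11). Prdx2, abundant in red cells, had 49756, 50347 and 61356 (0.08 and 0.28). Prdx4 of the endoplasmic reticulum had 14130, 11985 and 12570 (-0.18 and 0.06). The thioredoxins Txn1 (cytosolic) and Txn2 (mitochondrial) had age ratios of -0.11 and -0.07 and knockout ratios of 0.15 and 0.07.

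Prdx3 and Gsta4 were printed 10 times on each array, which shows the error of a spot. The mitochondrial peroxiredoxin Prdx3 had 9805 ± 372, 8949 ± 272 and 7875 ± 284 on young WT, old WT and old p16-/- (SD, n = 10 spots). The transferase Gsta4, which detoxifies products of lipid peroxidation, had 7662 ± 186, 5261 ± 167 and 7222 ± 189 (SD, n = 10 spots). On the scaled log2 scale the spots of Gsta4 on old WT, 1.31 to 1.44, did not overlap those on young WT, 1.78 to 1.90, or those on old p16-/-, 1.76 to 1.89. The spots of Prdx3 overlapped between the WT arrays (2.09 to 2.27 on young WT, 2.04 to 2.17 on old WT) and were lower on old p16-/- (1.85 to 2.00). The spots of an array share 1 RNA sample, so a gap between arrays shows nothing about the spread between donors. How many of the other probes printed 10 times separate likewise was not counted.

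**Figure D5:**
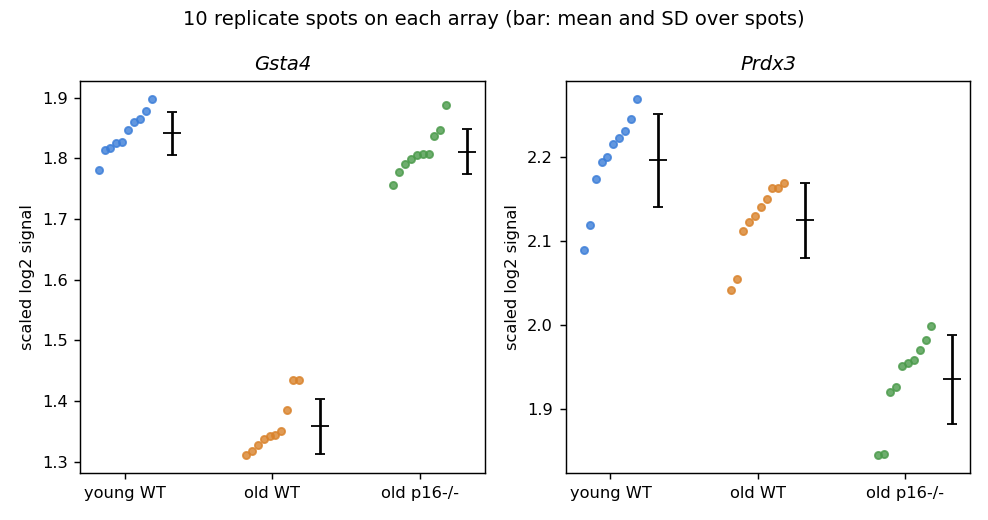
Scaled log2 signal (y axis, not from 0) of the 10 replicate spots of Gsta4 (left) and Prdx3 (right) on each array, drawn in order of value, with the mean and SD over spots in black. The Gsta4 spots of old WT, 1.31 to 1.44, lie apart from those of the other arrays, and the Prdx3 spots of the WT arrays overlap.

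The glutathione transferases made up 5 of the 8 members at least 2-fold apart, in both directions. These were 3 of the 8 cytosolic and 2 of the 3 membrane-bound transferases, where 12% of all genes above background on all arrays had such a range. Of the 3 membrane-bound members, Mgst1, which also has peroxidase activity, had 25130 (young WT), 11557 (old WT) and 11140 (old p16-/-), high on young WT and low on both old arrays. It was 2.09-fold lower on old WT than on young WT (log2 ratio -1.06) and 2.17-fold lower on old p16-/- (-1.12), with -0.06 between the old arrays. A second probe gave -1.04 for old WT over young WT and -0.11 between the old arrays.

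Mgst2, which can conjugate leukotrienes, took the opposite order. Its signals were 3555 (young WT), 5578 (old WT) and 14883 (old p16-/-), highest on old p16-/-. The ratios were 0.71 for old WT over young WT, 1.41 for old p16-/- over old WT (2.66-fold) and 2.12 for old p16-/- over young WT (4.35-fold). Mgst3 had 22583, 18646 and 18281, with -0.22 and -0.03 in the first and second of these.

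Markers of other cell types also differed between these arrays. Of 12 macrophage markers, 11 were at least 2-fold lower on old WT than on young WT, where 3.17% of all counted genes were. Between old p16-/- and old WT, 10 were at least 2-fold lower on old p16-/-, where 6.61% of all counted genes were. All 12 were above background on both WT arrays and 3 on old p16-/- (Csf1r, Itgam and Fcer1g). The summed signal of the list was 45079, 25522 and 16732 on young WT, old WT and old p16-/-. Itgam, within 2-fold in both comparisons (-0.01 and -0.36), had 19992, 19071 and 14934 and makes up most of the sum on both old arrays.

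The other lists did not each move one way, and the differences of single markers given next are knockout ratios. In that comparison 5.89% of all counted genes were at least 2-fold higher on old p16-/- and 6.61% at least 2-fold lower. The counts of the lists below stand beside these shares. Of 6 counted smooth muscle and pericyte markers, 3 were at least 2-fold lower on old p16-/-, the contractile genes Acta2 (-1.98), Tagln (-1.75) and Cnn1 (-1.79), which make up most of the list's summed signal of 330378, 378958 and 118113. Myh11 (78 on young WT, 92 on old WT) and Rgs5 (83 and 82) were dim and did not clear background on old p16-/-. They were lower there by at least 0.97 and 0.80. Of the counted markers only the pericyte marker Cspg4 was higher, at 0.60, and Des was above background on none of the arrays. Of 5 cartilage markers, 3 were at least 2-fold higher, Col2a1 (3.26), Col10a1 (1.92) and Acan (at least 2.52), and Comp was lower (-1.53), with Sox9 at -0.05. Their summed signal of 5718, 11638 and 46471 is on old p16-/- mostly that of Col2a1, at 42067.

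Some hemoglobin and keratin genes stood high on the same array as Gsta2 and Mgst2, and others did not. The alpha globins Hba-a1 and Hba-a2 had knockout ratios of 5.52 and 5.06, with 2241 and 8594 on old p16-/-, while the beta globins Hbb-bs and Hbb-bt were above background on none of the arrays. Of 6 epithelial markers, Krt8 (1.80) and Krt18 (2.10) were at least 2-fold higher, and Cdh1 lay at -0.98, with a summed signal of 5040, 3266 and 7473. Krt5 lay at 0.06 and Krt14 at 0.82, the latter with similar signals on young WT (3189) and old p16-/- (3239). Of 6 adipocyte markers, 3 were above background on each array, and Lpl (2.78) alone was 2-fold apart, with a summed signal of 3724, 4228 and 6151.

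All 10 fibroblast markers were above background on every array, and their summed signal of 804620, 793327 and 717997 is mostly that of Col1a1, Col1a2 and Vim. None was 2-fold apart between the WT arrays. On old p16-/- the surface marker Thy1 was far lower, at 69467, 52045 and 3287 with a knockout ratio of -3.99, while Pdgfra (884 on old WT, 2682 on old p16-/-) and Fap (587 and 1668) were at least 2-fold higher. In bulk RNA, fewer cells of a type and less RNA per cell cannot be told apart, and the part of these cell types in the values of Mgst1, Mgst2, Gsta2, Gpx3 and the other members was not tested.

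Among the cytosolic transferases, Gsta2 of the alpha class had the largest ratio of old p16-/- over old WT among the 39 members. Its signals were 1946 (young WT), 1635 (old WT) and 5534 (old p16-/-). Old p16-/- was high and the WT arrays were close, with ratios of 1.75 over old WT (3.37-fold), 1.56 over young WT (2.95-fold) and -0.19 between the WT arrays. The other alpha-class members did not share this size. Gsta3 had 1252, 796 and 815 and was highest on young WT, with an age ratio of -0.59 and a knockout ratio of 0.03, and a second probe gave -0.59 and 0.09. Gsta4, described above by its spots, had -0.48 and 0.45.

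The mu class was split. Gstm2 had 12167 (young WT), 8870 (old WT) and 4948 (old p16-/-), lowest on old p16-/-, with ratios of -0.40 for old WT over young WT, -0.85 for old p16-/- over old WT and -1.24 for old p16-/- over young WT (2.37-fold lower). Its other 2 probes gave -0.34 and -0.33, then -0.89 each. Gstm1 was even, at 6484, 6586 and 7085 (0.08 and 0.10).

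The omega-class Gsto1, which reduces dehydroascorbate and thiol adducts, had 221196 (young WT), 200067 (old WT) and 106102 (old p16-/-). The WT arrays were close and old p16-/- was low, with ratios of -0.08 between the WT arrays and -0.92 for old p16-/- over old WT; the latter passed 2-fold under quantile normalization (-1.03) and cyclic loess (-1.05). The theta-class Gstt1 had 582, 1029 and 945 and was low on young WT, with 0.88 and -0.13. The pi-class Gstp1 had 19227, 19004 and 23554, with 0.04 and 0.31. Alpha, mu and pi transferases have close paralogs, and whether these probes tell them apart was not tested.

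In the wider redox network, 89 further genes were listed by role, of which 86 were on the array. For old WT over young WT, 1 of 79 counted genes was at least 2-fold higher and 2 lower, where 2.92% and 3.17% of all counted genes were. For old p16-/- over old WT, 1 of 79 was higher and 4 lower, against 5.89% and 6.61%. Between old p16-/- and young WT, 2 of 78 were higher and 5 lower, against 6.34% and 6.96%, so that the listed genes passed 2-fold about as often as all genes or less. The glutaredoxin Glrx, which removes glutathione from proteins, was the higher one on old p16-/-, with signals of 1162, 1144 and 2776 on young WT, old WT and old p16-/- and a ratio of 1.27 over old WT. The mitochondrial and peroxisomal transferase Gstk1 was lower there, at 6139, 5217 and 1520 (-1.78). So was xanthine dehydrogenase Xdh, which can produce superoxide, at 2457, 3207 and 905 (-1.83). Nox4, an oxidase that makes hydrogen peroxide in fibroblasts, had 652, 945 and 1288 and was at 1.04 for old p16-/- over young WT.

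The remaining genes past 2-fold, named after their values were seen, did not reach 1000 on any array. The phagocyte oxidase subunit Ncf4 had 612, 109 and 10, with -2.44 for old WT over young WT and at least 1.21 below old WT on old p16-/-, where it did not clear background. Ncf1 was lower by at least 1.97 on old WT than on young WT, Gstm6 lower by at least 2.44 on old p16-/- than on old WT, and Nfe2l3 higher by at least 1.61 on old WT than on young WT. No gene was 2-fold apart in any comparison among the 7 measured genes of NADPH supply (ratios of -0.40 to 0.18 for old WT over young WT), the 7 of selenium supply and selenoproteins, the 11 further Nfe2l2 targets or the 4 metallothioneins. The 11 further Nfe2l2 targets had a median age ratio of 0.09, from -0.41 for Blvrb to 0.66 for Osgin1, and a median knockout ratio of -0.06, from -0.57 for Osgin1 to 0.26 for Blvra. They lay on both sides of 0 in each.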

How the data were processed

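The deposited scanner files hold linear spot intensity from Cy3-labelled RNA, made with Agilent Feature Extraction 11.5.1.1 on a grid of mm9, per the file headers; the processed signal is background-subtracted and was not normalized between arrays by the authors. The deposited value table holds the same intensity (39030 of 39030 probes spotted once agreed within a relative tolerance of 0.0001; medians 137, 135 and 132). Control and outlier spots were left out, log2 signals averaged per probe, and each array's 75th percentile subtracted. Accessions were matched without version to a RefSeq table of GRCm38.p6, which named 27508 of 39429 probes. A gene counted in a comparison if a probe was well above background on at least 1 of its 2 arrays; where 1 was not, the ratio is a bound, against the higher of the lowest level above background and the dim probe's own. Of 43020 spots, 57.4 to 61.6% were well above background and none was saturated. Folds of 2 and 1.5 describe size. The ratio and call steps were tested on simulated data. All members were described, those at least 1.5-fold apart, the regulators, targets, peroxidases and dismutases with every level, and other redox genes if 2-fold apart with a signal of at least 1000. Members and lists were chosen with earlier results of these data known. Python 3.11.15, pandas 2.3.3 and limma 3.58.1 (normexp, quantile and cyclic loess alternatives) were used.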

Additional observations from a re-analysis of the deposited data

How the results depend on the processing

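Of 13 alternatives, 1 was chosen after seeing the data: normexp used the median spot signal, since the planned mean spot signal was not in the files used here. The numbers of members at least 2-fold higher or lower stayed within 1.5 times except as follows. For old p16-/- over old WT, 1 member in place of 2 was lower with normexp and also where a signal of 1000 on either array was required; in both cases the member lost was the dim Slc7a11. At 1.5-fold, by construction a looser size, 5 members were higher and 2 lower for old WT over young WT, 5 were lower for old p16-/- over old WT, and 5 were higher for old p16-/- over young WT (12.8% of members, against 11.3% of all genes). The list's medians moved by less than the SD of a single gene's ratio between spots, which does not measure the spread of a median. The medians themselves (0.06, -0.06 and -0.03) were also smaller than that SD. The median of old p16-/- over young WT, -0.03, turned to 0.03 with the median over all probes of a gene. Of 13 ratios past 2-fold, 11 stayed past it under every alternative that gave a value, and the exceptions were Slc7a11 (old p16-/- over old WT) and Gsto1 (old p16-/- over young WT, just within 2-fold with median scaling). A sign turned for 15 of 117 ratios, none larger than 0.10, and none past 2-fold. No setting shifted the median of all genes by over 0.1. No paired analysis was possible because each group has 1 array. Dim members are limited by signal over background, and all values by 1 array per group.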
